A study of Mus musculus with 13 samples.

Results

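Interferon response and antigen presentation genes are described here in enterocytes, the absorptive cells that line the gut, from mice with 1 or both copies of casein kinase Iα (CKIα) deleted in the intestine. The set has 50 named genes. Of these, 45 were measured by a probe set of the array that is annotated to that gene alone, and all 45 passed the filter on dim genes, out of 16721 genes tested in all. Isg15, Gbp2, Gbp6 and Igtp share their probe sets with related genes in the annotation, and Ifi44 has no probe set named for it, so these 5 are not analysed here. Where a gene had several probe sets, the one with the highest mean was used, which applies to Irf1 (2 probe sets) and Nlrc5 (19).

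CKIα is the product of Csnk1a1 and restrains Wnt signalling by helping to destroy β-catenin. The study asked what its loss changes with and without p53, a tumour suppressor, and p21, a cell cycle inhibitor that p53 induces. The gut deletion was on 1 allele (CKIα Het) or on both (CKIα KO), and each of these states was studied in 3 backgrounds, which gives 6 groups. In the first background p53 and p21 were intact, in the second p21 was knocked out (CKIα Het/p21 KO and CKIα KO/p21 KO) and in the last p53 was (CKIα Het/p53 KO and CKIα KO/p53 KO). Each group had 2 arrays, called biological replicates in the labels, from mice on a 129/SVJ background. All groups carried the deletion on at least 1 allele, so no group is wild type, and the labels used here give neither the driver of the deletion nor the age of the mice.

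Interferons are secreted proteins that cells release on infection. Type I and type III interferons raise antiviral effectors through a promoter element called ISRE. Interferon-γ, made by lymphocytes, acts on an element called GAS and raises the immunoproteasome, peptide transporters, Ido1 and, through the coactivator CIITA, the class II molecules. In the small intestine, enterocytes themselves carry class II molecules and respond to interferon-γ from the lymphocytes that lie among them.

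The arrays had median log2 intensities from 4.96 to 5.12. The epithelial genes Vil1 and Epcam were at 11.66 to 12.56 and 11.33 to 11.66. Lymphocyte markers were present on all arrays at varying levels, given further below. Csnk1a1 was at 10.44 to 10.80 on the 12 arrays and was 0.01 ± 0.08, adjusted p = 0.915 in limma on average over the backgrounds. Its probe set is not tied in the labels to the deleted exons and checks no genotype. Xist, which females express from their silenced X, was below 4 on every replicate 1 array and above 8 on every replicate 2 array, so each group holds 1 array of each kind. The remaining array of the series has labels that disagree, a title for replicate 3 of CKIα KO/p53 KO and a genotype of CKI KO alone, and it entered no comparison.

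Averaged over the 3 backgrounds, 5 of 6 class II antigen presentation genes, Ido1 and the immunoproteasome subunit Psmb8 were lower in CKIα KO than in CKIα Het, and the antiviral genes Ifit2 and Eif2ak2 were higher. Of the 45 genes, 5 rose and 10 fell. Over all genes tested, 24.4% were called in this comparison, 15.5% higher and 8.96% lower, whereas 11.1% of the 45 genes were higher and 22.2% lower. A call is an adjusted p under 0.05 from limma, a linear model that pools each gene's spread over the groups and moderates it across genes, after Benjamini-Hochberg adjustment over all genes tested. The genes Ido1, Psmb8, Tap2, Cd74, H2-Aa, H2-Ab1, H2-Eb1, H2-DMa, Ifit2 and Eif2ak2 were called under each of the 18 alternatives that were run. The other 5, Psmb9, B2m, Zbp1, Gbp3 and Irgm1, were each lost under at least 1 of them. Of the 6 alternatives that keep all arrays, Psmb9 and Zbp1 were called in 4, B2m in 5 and Gbp3 and Irgm1 in all 6. Psmb9, B2m and Zbp1 were lost in most of the alternatives that leave out 1 array. Without CKIα Het replicate 1, CKIα Het/p53 KO replicate 1 or CKIα KO/p53 KO replicate 1, 10 genes were called in place of 15.

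The single backgrounds gave fewer calls. With p53 knocked out, 4 of the 45 genes rose and 7 fell, where 11.0% of all genes rose and 6.82% fell (17.8% together). With p21 knocked out, 0 rose and 2 fell, where 1.46% of all genes rose and 0.514% fell (1.97% together). With both genes present 0 of the 45 genes were called by limma, where 0.0239% of all genes were called. At an unadjusted p under 0.05 there were 7 of the 45 (15.6%), beside 9.09% of all genes. After a further quantile normalization, the calls over all genes were 1407 higher and 1369 lower without p53 in place of 1841 and 1140, 143 and 82 without p21 in place of 244 and 86, and 2056 and 1914 on average in place of 2585 and 1499. The calls without p53 depend on single arrays: 0 of the 45 genes were called without CKIα Het/p53 KO replicate 1 or CKIα KO/p53 KO replicate 2, 1 without CKIα Het/p53 KO replicate 2 and 2 without CKIα KO/p53 KO replicate 1. Without p21, more genes of the set fell when CKIα KO/p21 KO replicate 1 or either CKIα KO array was left out. Leaving out CKIα KO/p21 KO replicate 1 also raised the calls over all genes, and leaving out either CKIα KO array did not. None was called in that comparison when any one of the other 9 arrays was left out.

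**Figure D1:**
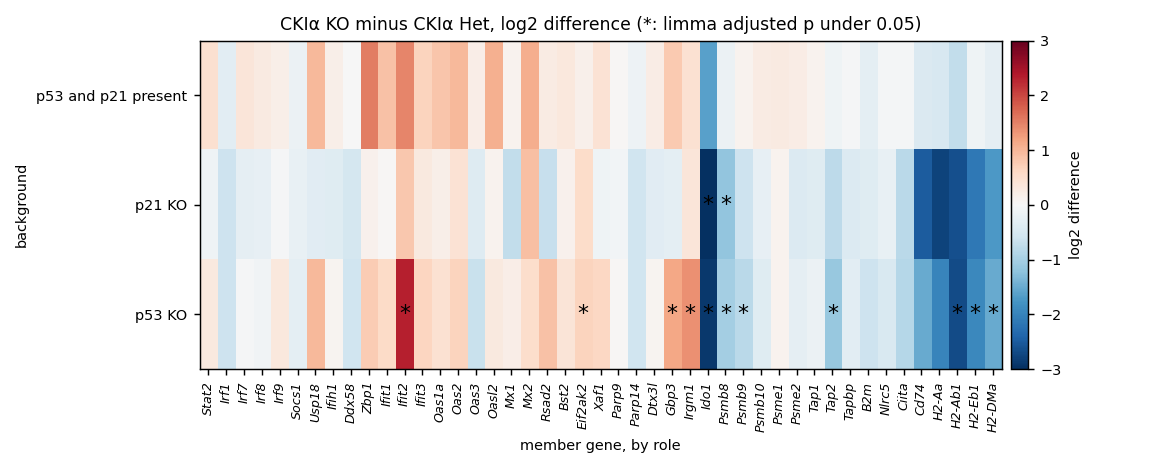
The heat map shows the log2 difference of CKIα KO minus CKIα Het (colour, red higher and blue lower) for the 45 genes (columns, ordered by role) in 3 backgrounds (rows), with an asterisk where limma called the gene. The 6 class II genes at the right are below 0 in all rows, and the antiviral genes in the middle are mostly above 0 with both genes present and with p53 knocked out.

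The class II group holds Ciita, the coactivator that switches class II genes on, Cd74, the invariant chain that guides class II molecules to their loading compartment, the chains H2-Aa, H2-Ab1 and H2-Eb1, and H2-DMa, which helps load the peptide. On average over the backgrounds 5 of the 6 fell, by a group median of -1.44 on the log2 scale, beside -0.03 over all genes. H2-Ab1 was at 10.51 and 11.27 on the CKIα Het arrays, 10.18 and 11.36 on CKIα Het/p21 KO and 10.67 and 10.91 on CKIα Het/p53 KO. On the CKIα KO arrays H2-Ab1 was at 11.17 and 9.12, on CKIα KO/p21 KO at 8.61 and 7.67 and on CKIα KO/p53 KO at 8.20 and 7.99. All 4 arrays of the CKIα KO/p21 KO and CKIα KO/p53 KO groups lay below all 6 CKIα Het arrays, and the pair of CKIα KO arrays was split, one among the CKIα Het arrays and one below them. H2-Ab1 fell 4.07-fold on average (-2.02 ± 0.36, adjusted p = 0.00467, limma, SE, n = 2 per group) and 6.46-fold with p53 knocked out (-2.69 ± 0.62, adjusted p = 0.0192). With p21 knocked out the difference was -2.63 ± 0.62 and was not called (limma adjusted p = 0.0572), and with both genes present it was -0.75 ± 0.62 (adjusted p = 0.800). Without p21, 19 of 19 lymphocyte markers were below 0 as well, with a median of -1.50, where 51.0% of all genes were below 0. Without p53 13 of 19 were, with a median of -0.21, where 56.4% of all genes were. Of these markers 0 were called by limma in either background. In such bulk samples, fewer cells of a type and less RNA per cell cannot be told apart.

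H2-Eb1 was at 9.77 and 9.96 on the CKIα Het arrays, 9.61 and 10.30 on CKIα Het/p21 KO and 10.06 and 9.92 on CKIα Het/p53 KO. The values with CKIα lost were 10.63 and 8.83 (CKIα KO), 8.18 and 7.46 (CKIα KO/p21 KO) and 7.69 and 8.41 (CKIα KO/p53 KO). CKIα KO replicate 1 was the highest of the 12 arrays for this gene, and the arrays of the groups that also lacked p21 or p53 were the 4 lowest. H2-Eb1 fell 3.84-fold with p53 knocked out (-1.94 ± 0.51, adjusted p = 0.0296, limma) and 2.65-fold on average. H2-Aa was at 9.995 and 11.11 on the CKIα Het arrays, 9.69 and 10.98 on CKIα Het/p21 KO and 10.19 and 10.73 on CKIα Het/p53 KO. Its CKIα KO values were 11.07 and 9.07, against 8.01 and 7.12 in CKIα KO/p21 KO and 8.24 and 8.70 in CKIα KO/p53 KO. The split between the CKIα KO arrays and the low values of the 4 double knockout arrays were repeated here. H2-Aa fell 3.35-fold on average (-1.74 ± 0.38, adjusted p = 0.0106, limma), with -2.77 ± 0.66 without p21 (adjusted p = 0.0588) and -1.99 ± 0.66 without p53 (adjusted p = 0.0625), neither of which was called.

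Cd74 was at 10.06 and 11.16 on the CKIα Het arrays, 10.06 and 11.24 on CKIα Het/p21 KO and 9.96 and 10.72 on CKIα Het/p53 KO. On the CKIα KO arrays Cd74 was at 10.98 and 9.39, on CKIα KO/p21 KO at 8.38 and 7.95 and on CKIα KO/p53 KO at 8.89 and 8.77. Its 2 CKIα KO arrays differed from each other more than the 2 arrays of any other group. Cd74 fell 2.78-fold on average (-1.47 ± 0.32, adjusted p = 0.0110, limma). H2-DMa was at 6.19 and 6.85 on the CKIα Het arrays, 6.67 and 6.92 on CKIα Het/p21 KO and 6.11 and 6.82 on CKIα Het/p53 KO. The values with CKIα lost were 6.97 and 5.50 (CKIα KO), 5.02 and 5.11 (CKIα KO/p21 KO) and 5.20 and 4.72 (CKIα KO/p53 KO). H2-DMa fell 2.83-fold with p53 knocked out (-1.50 ± 0.43, adjusted p = 0.0396, limma) and 2.25-fold on average. Ciita was at 6.003 and 6.02 on the CKIα Het arrays, 5.52 and 6.08 on CKIα Het/p21 KO and 5.53 and 6.02 on CKIα Het/p53 KO. Its CKIα KO values were 6.85 and 5.06, against 4.89 and 5.08 in CKIα KO/p21 KO and 4.95 and 4.88 in CKIα KO/p53 KO. For Ciita, CKIα KO replicate 1 was the highest array, and CKIα KO replicate 2 and the 4 double knockout arrays lay below all CKIα Het arrays. Ciita itself was -0.58 ± 0.26 on average and was not called (limma adjusted p = 0.137).

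**Figure D2:**
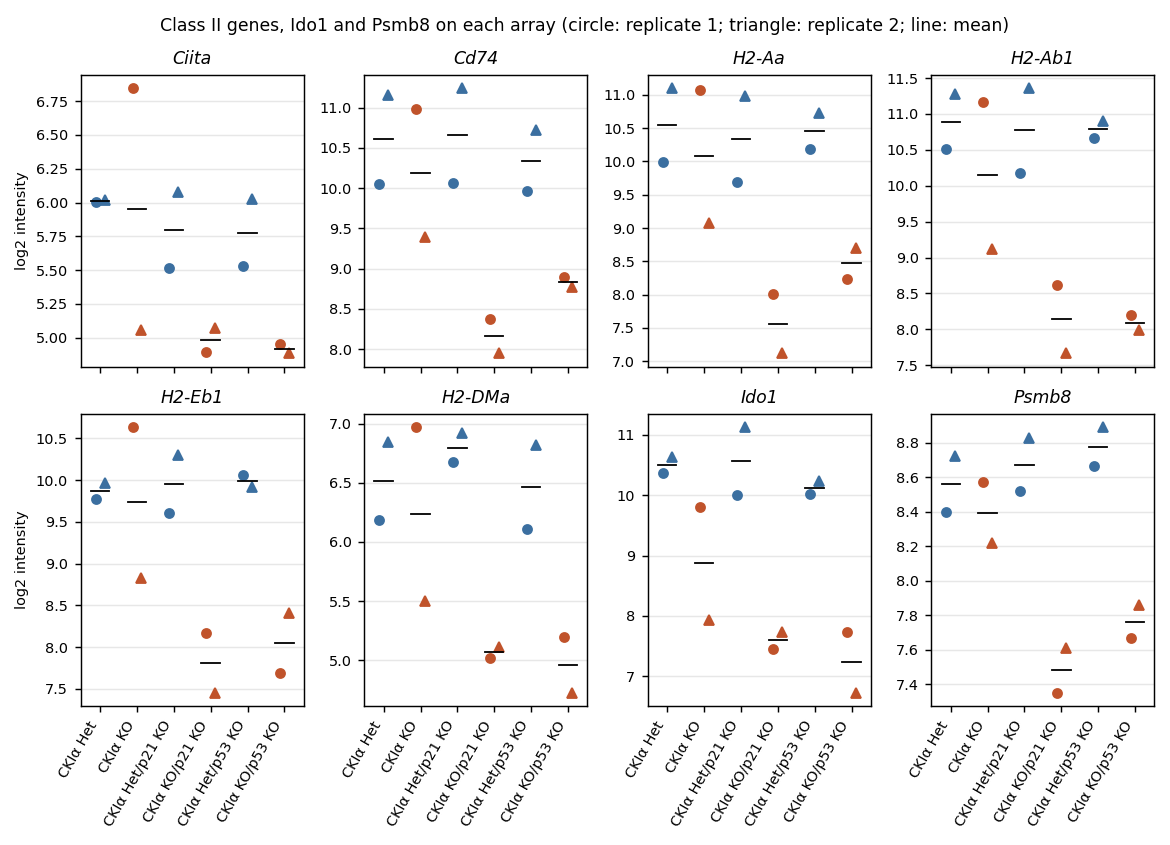
Each panel plots 1 gene, with log2 intensity on the vertical axis and the 6 groups on the horizontal axis (blue CKIα Het, orange CKIα KO, circle replicate 1, triangle replicate 2, line the mean of 2 arrays). In every panel the 4 CKIα KO/p21 KO and CKIα KO/p53 KO arrays lie below the 6 CKIα Het arrays. The 2 CKIα KO arrays lie more than 1 log2 apart in every panel but that of Psmb8.

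Promoter sequences are shown for some called genes whose promoter holds a searched element. Of the 45 genes, 32 have an entry in the RefSeq promoter table of GRCm38.p6, with 39 promoters in all, each running from 250 bases before the start site to 50 after it. The Y box, searched as CTGATTGG on both strands, is part of the class II promoter module and is bound by the factor NF-Y. It was found in 4.1% of 32851 promoters of this length and in 12.8% of the 39 (5 of 39). Of these 5, Irf8, Psmb9 and Tap1 are not class II genes. The windows of Psmb9 and Tap1 overlap and share the same Y box, which is counted for both. The other 2 promoters are those of H2-Aa (chr17:34287774-34288073, minus strand) and H2-Eb1 (chr17:34305617-34305916, plus strand), with the Y box 51 and 62 bases before the start. Their sequences are given 5′ to 3′ on the gene's strand with the Y box in capitals. The promoters of H2-DMa in the table do not hold these letters, and H2-Ab1, Cd74 and Ciita are not in the table.
H2-Aa: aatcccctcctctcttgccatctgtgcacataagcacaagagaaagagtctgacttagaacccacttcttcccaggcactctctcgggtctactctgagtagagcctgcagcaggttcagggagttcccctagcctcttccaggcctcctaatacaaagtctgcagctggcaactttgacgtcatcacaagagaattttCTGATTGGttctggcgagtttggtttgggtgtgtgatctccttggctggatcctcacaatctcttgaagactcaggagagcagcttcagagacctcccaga
H2-Eb1: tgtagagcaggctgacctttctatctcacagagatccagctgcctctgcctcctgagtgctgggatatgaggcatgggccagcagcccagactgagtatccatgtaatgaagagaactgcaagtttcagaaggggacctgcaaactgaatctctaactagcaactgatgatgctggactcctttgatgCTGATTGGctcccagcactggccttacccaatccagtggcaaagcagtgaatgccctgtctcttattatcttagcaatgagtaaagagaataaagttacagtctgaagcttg

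Ido1 encodes indoleamine dioxygenase, an enzyme that degrades tryptophan and is a classical target of interferon-γ. Ido1 was at 10.36 and 10.63 on the CKIα Het arrays, 10.01 and 11.13 on CKIα Het/p21 KO and 10.01 and 10.24 on CKIα Het/p53 KO. On the CKIα KO arrays Ido1 was at 9.81 and 7.93, on CKIα KO/p21 KO at 7.45 and 7.73 and on CKIα KO/p53 KO at 7.73 and 6.72. Ido1 was the only one of the 45 genes for which all 6 arrays of the CKIα KO groups lay below all 6 CKIα Het arrays, which was so for 1.96% of all genes tested, so that 1 of 45 is near the background. It fell 7.89-fold with p21 knocked out (-2.98 ± 0.56, adjusted p = 0.0440, limma, SE, n = 2 per group), 7.48-fold with p53 knocked out (-2.90 ± 0.56, adjusted p = 0.0118) and 5.67-fold on average (adjusted p = 0.00215). With both genes present the difference of -1.63 ± 0.56 was not called (limma adjusted p = 0.399).

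The proteasome cuts proteins into peptides. Under interferon, its catalytic subunits Psmb5, Psmb6 and Psmb7 are replaced by Psmb8, Psmb9 and Psmb10, which form the immunoproteasome, and Psme1 and Psme2 form its activating cap. Psmb8 was at 8.40 and 8.72 on the CKIα Het arrays, 8.52 and 8.83 on CKIα Het/p21 KO and 8.66 and 8.89 on CKIα Het/p53 KO. The values with CKIα lost were 8.57 and 8.22 (CKIα KO), 7.35 and 7.61 (CKIα KO/p21 KO) and 7.67 and 7.86 (CKIα KO/p53 KO). The 4 double knockout arrays were the lowest, below both CKIα KO arrays and all CKIα Het arrays. Psmb8 fell 2.28-fold without p21 (-1.19 ± 0.19, adjusted p = 0.0330, limma), 2.02-fold without p53 (-1.01 ± 0.19, adjusted p = 0.0113) and 1.73-fold on average (adjusted p = 0.00245). With both genes present its difference was -0.17 ± 0.19 (limma adjusted p = 0.871).

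Psmb9 was at 8.37 and 8.59 on the CKIα Het arrays, 8.37 and 8.43 on CKIα Het/p21 KO and 8.52 and 8.84 on CKIα Het/p53 KO. Its CKIα KO values were 8.99 and 8.19, against 7.78 and 7.80 in CKIα KO/p21 KO and 7.95 and 7.78 in CKIα KO/p53 KO. Psmb9 fell 1.76-fold without p53 (-0.82 ± 0.23, adjusted p = 0.0386, limma) and was -0.61 ± 0.23 without p21 (adjusted p = 0.155, not called). Psmb10 was -0.36 ± 0.13 without p53, -0.25 ± 0.13 without p21 and 0.24 ± 0.13 with both genes present, with 0 of these called by limma (adjusted p = 0.0861, 0.300 and 0.652). Psme1 and Psme2 were at 0.15 and -0.15 on average and were not called.

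The constitutive subunits, which are not induced by interferon, had differences on the other side of 0. Psmb7 was 0.53 ± 0.11, adjusted p = 0.00964 on average by limma and Psmb5 0.42 ± 0.12, adjusted p = 0.0259, and both rose. Psmb6 was 0.25 ± 0.15 and was not called (limma adjusted p = 0.249). Psme3 and Psme4, other proteasome activators, rose by 0.47 and 0.35 in log2 on average. Psmb7 and Psme3 also rose with p53 knocked out (0.63 ± 0.19 and 0.74 ± 0.17). After a further quantile normalization, Psmb5 on average (0.32) and Psmb7 without p53 (0.48) were no longer called, while Psmb10 was called lower without p53 (-0.46).

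**Figure D3:**
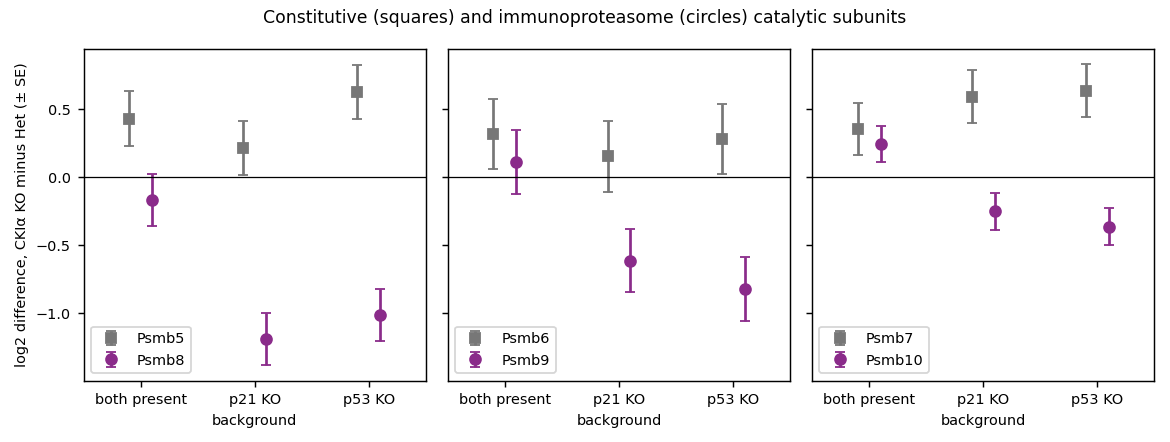
Each panel plots the log2 difference of CKIα KO minus CKIα Het (vertical axis, ± SE of the limma fit, n = 2 per group) for a constitutive subunit (grey squares) and the immunoproteasome subunit that takes its place (purple circles) in 3 backgrounds. Without p21 and without p53, Psmb8, Psmb9 and Psmb10 lie below 0 and Psmb5, Psmb6 and Psmb7 above it.

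Genes that load peptides onto class I molecules include Tap1 and Tap2, which carry peptides into the endoplasmic reticulum, Tapbp, the tapasin that bridges them to class I, B2m, the light chain of class I, and Nlrc5, the class I counterpart of Ciita. Tap2 was at 7.58 and 7.98 on the CKIα Het arrays, 7.54 and 7.95 on CKIα Het/p21 KO and 7.84 and 8.05 on CKIα Het/p53 KO. On the CKIα KO arrays Tap2 was at 7.99 and 7.31, on CKIα KO/p21 KO at 7.04 and 6.87 and on CKIα KO/p53 KO at 7.01 and 6.62. The 4 double knockout arrays again lay below the 6 CKIα Het arrays. Tap2 fell 2.19-fold with p53 knocked out (-1.13 ± 0.25, adjusted p = 0.0179, limma) and 1.61-fold on average (adjusted p = 0.00991). B2m fell on average (log2 difference -0.43, limma adjusted p = 0.0407), with a range of 12.32 to 12.85 on the CKIα Het arrays and 11.74 to 12.48 on the CKIα KO arrays of all backgrounds, which overlap. Tap1, Tapbp and Nlrc5 were at -0.15, -0.25 and -0.25 on average and were not called.

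Over the whole set, 13 genes had all 4 double knockout arrays below all 6 CKIα Het arrays, and 2, Ifit2 and Eif2ak2, had them above. Of all genes tested 6.54% were separated below in this way and 12.5% above. The 13 were the 6 class II genes, Ido1, Psmb8, Psmb9, Psmb10, Tap2, Tapbp and Parp14. The gap was narrow for Psmb10, with a highest double knockout array of 8.854 and a lowest CKIα Het array of 8.856. It was also narrow for Parp14 (9.11 and 9.17). The grouping of these 13 genes was made after the values were seen and carries no test.

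The antiviral effectors, typical of type I and type III interferon, were measured for 13 genes. Of these, 13 were above 0 with both genes present and 12 with p53 knocked out, with medians of 0.66 and 0.56, where 9004 and 7284 of all 16721 genes were above 0. Of the 13, 2 were called, Ifit2 and Eif2ak2, both with p53 knocked out and on average, where 11.0% and 15.5% of all genes were called higher. With p21 knocked out 9 were above 0 (8183 of all genes), with a median of 0.14 and 0 called by limma, and no effector had an adjusted p under 0.05 with both genes present either.

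Ifit2 encodes a protein that binds viral RNA and blocks its translation. Ifit2 was at 4.17 and 4.34 on the CKIα Het arrays, 4.34 and 4.40 on CKIα Het/p21 KO and 4.37 and 4.84 on CKIα Het/p53 KO. The values with CKIα lost were 4.79 and 6.68 (CKIα KO), 5.02 and 5.34 (CKIα KO/p21 KO) and 7.22 and 6.67 (CKIα KO/p53 KO). All 6 CKIα Het arrays lay below 5, and CKIα KO replicate 2 lay beside the CKIα KO/p53 KO arrays. Ifit2 rose 5.07-fold with p53 knocked out (2.34 ± 0.48, adjusted p = 0.0134, limma, SE, n = 2 per group) and 2.91-fold on average (1.54 ± 0.27, adjusted p = 0.00492). With both genes present it was 1.48 ± 0.48 (limma adjusted p = 0.365) and with p21 knocked out 0.81 ± 0.48 (adjusted p = 0.351), neither called. When CKIα KO replicate 1 was left out, Ifit2 was called with both genes present, at 2.42 (limma adjusted p = 0.0124), and over all alternatives its adjusted p lay between 0.0124 and 0.933.

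Eif2ak2 encodes PKR, the kinase that stops translation on double-stranded RNA. Eif2ak2 was at 7.38 and 7.49 on the CKIα Het arrays, 7.50 and 7.19 on CKIα Het/p21 KO and 7.29 and 7.21 on CKIα Het/p53 KO. Its CKIα KO values were 7.59 and 7.58, against 7.94 and 7.84 in CKIα KO/p21 KO and 7.95 and 7.90 in CKIα KO/p53 KO. It was the only one of the 45 genes with all 6 arrays of the CKIα KO groups above all 6 CKIα Het arrays, with a lowest value of 7.58 against a highest of 7.50. Of all genes tested, 3.74% were separated in this way, so that 1 of 45 is no more than the background. Eif2ak2 rose 1.60-fold with p53 knocked out (0.68 ± 0.14, adjusted p = 0.0137, limma) and 1.37-fold on average (0.46 ± 0.08, adjusted p = 0.00458). Its difference was 0.55 ± 0.14 with p21 knocked out and 0.15 ± 0.14 with both genes present, and was called in neither (limma adjusted p = 0.0654 and 0.831).

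Gbp3 and Irgm1 are GTPases that interferon-γ induces and that act on microbes enclosed in vacuoles. Gbp3 was at 4.995 and 5.21 on the CKIα Het arrays, 5.91 and 5.57 on CKIα Het/p21 KO and 4.88 and 5.37 on CKIα Het/p53 KO. On the CKIα KO arrays Gbp3 was at 5.63 and 6.15, on CKIα KO/p21 KO at 5.65 and 5.23 and on CKIα KO/p53 KO at 6.45 and 6.10. With p53 knocked out or both genes present, its CKIα KO arrays lay above the matching CKIα Het arrays. Irgm1 was at 6.06 and 6.67 on the CKIα Het arrays, 6.39 and 6.55 on CKIα Het/p21 KO and 5.84 and 6.05 on CKIα Het/p53 KO. The values with CKIα lost were 6.88 and 6.76 (CKIα KO), 6.28 and 7.39 (CKIα KO/p21 KO) and 7.61 and 7.03 (CKIα KO/p53 KO). For both genes the CKIα KO/p53 KO arrays lay above the CKIα Het/p53 KO arrays, and the groups without p21 overlapped for both. Gbp3 rose 2.22-fold (1.15 ± 0.25, adjusted p = 0.0161, limma) and Irgm1 2.59-fold (1.37 ± 0.34, adjusted p = 0.0246) with p53 knocked out. They belong to families of related sequence, so a probe set may also take up signal of a relative.

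**Figure D4:**
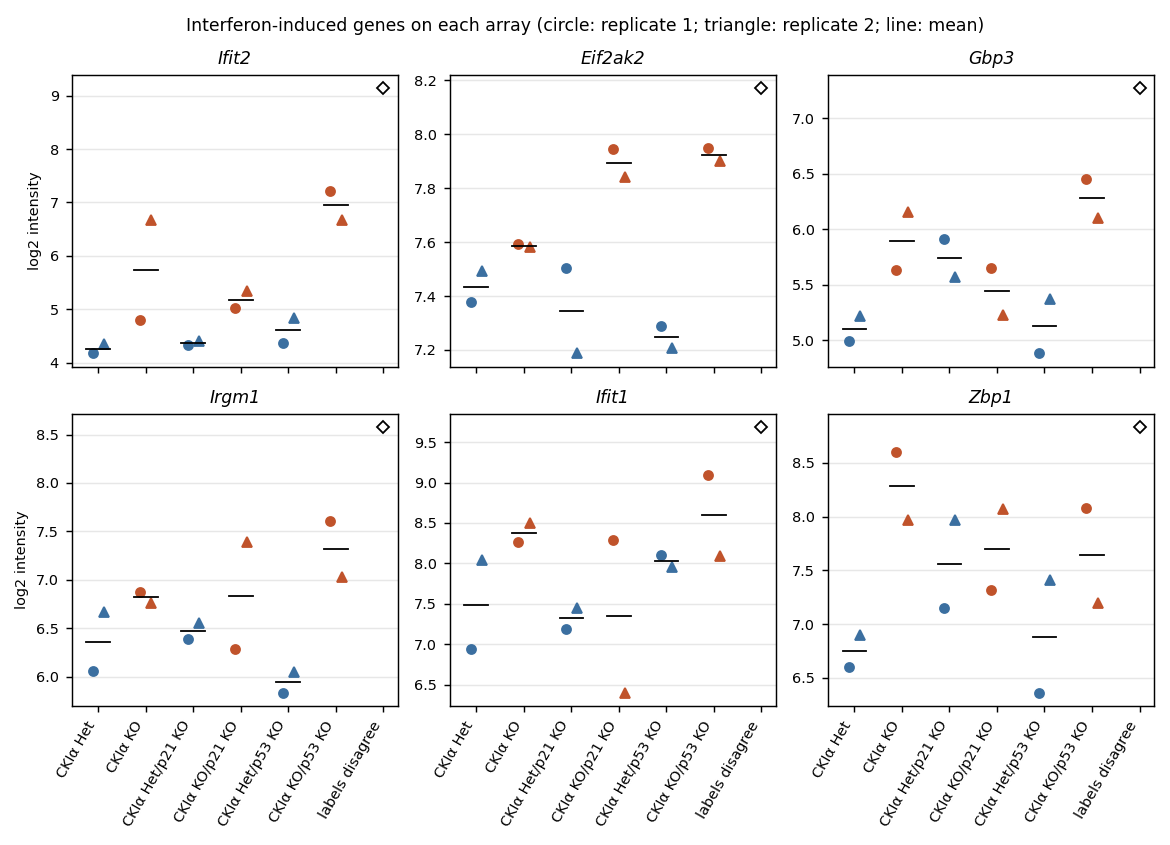
The panels plot log2 intensity (vertical axis) of 6 interferon-induced genes in the 6 groups (blue CKIα Het, orange CKIα KO, circle replicate 1, triangle replicate 2, line the mean of 2 arrays) and, as an open diamond, on the array whose labels disagree. Ifit2 reaches 7.22 among the 12 arrays of the comparisons and 9.15 on the array whose labels disagree.

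The ISRE, searched on both strands as GAAA, any 2 bases and GAAA again, was found in 3.44% of all 32851 promoters and in 15 of the 39 promoters of these genes (38.5%). GAS, searched as TTCNNNGAA, a motif that reads alike on both strands, was found in 8.3% of all promoters and 17.9% of these (7 of 39). By role, 7 of 10 antiviral effectors with an entry held the ISRE, both GTPases did, and 0 of 3 class II genes did. B2m, which fell on average, also holds an ISRE, 139 bases before its start. Gbp3, Irgm1 and Eif2ak2, which rose and hold it, are given 5′ to 3′ on the gene's strand, with each ISRE, and the GAS of Eif2ak2, in capitals, followed by Psmb8, which fell and holds a GAS 97 bases before its start. Gbp3 (chr3:142559794-142560093, plus strand) and Irgm1 (chr11:48871371-48871670, minus strand) hold 2 overlapping ISRE matches each within 45 bases of the start, and the match of Eif2ak2 (chr17:78882523-78882822, minus strand) lies past the start. Psmb8 (chr17:34197945-34198244, plus strand) holds no ISRE in this window, and Ifit2 holds a GAS and no ISRE with these letters. A match describes the letters only.
Gbp3: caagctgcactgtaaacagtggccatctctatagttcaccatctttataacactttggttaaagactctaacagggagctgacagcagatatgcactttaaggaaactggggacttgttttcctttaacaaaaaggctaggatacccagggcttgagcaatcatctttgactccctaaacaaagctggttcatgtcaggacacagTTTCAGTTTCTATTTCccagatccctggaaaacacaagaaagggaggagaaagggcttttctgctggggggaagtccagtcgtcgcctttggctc
Irgm1: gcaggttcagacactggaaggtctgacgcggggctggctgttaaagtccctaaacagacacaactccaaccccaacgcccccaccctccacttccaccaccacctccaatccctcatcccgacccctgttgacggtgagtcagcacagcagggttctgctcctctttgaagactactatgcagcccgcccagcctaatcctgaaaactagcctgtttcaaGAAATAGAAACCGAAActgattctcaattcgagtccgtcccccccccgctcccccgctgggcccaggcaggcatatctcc
Eif2ak2: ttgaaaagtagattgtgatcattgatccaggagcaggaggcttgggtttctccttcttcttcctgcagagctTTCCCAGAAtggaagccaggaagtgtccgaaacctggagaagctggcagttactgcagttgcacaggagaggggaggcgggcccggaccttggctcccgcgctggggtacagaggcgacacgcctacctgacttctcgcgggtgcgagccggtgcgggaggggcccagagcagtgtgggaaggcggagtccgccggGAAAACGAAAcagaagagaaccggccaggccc
Psmb8: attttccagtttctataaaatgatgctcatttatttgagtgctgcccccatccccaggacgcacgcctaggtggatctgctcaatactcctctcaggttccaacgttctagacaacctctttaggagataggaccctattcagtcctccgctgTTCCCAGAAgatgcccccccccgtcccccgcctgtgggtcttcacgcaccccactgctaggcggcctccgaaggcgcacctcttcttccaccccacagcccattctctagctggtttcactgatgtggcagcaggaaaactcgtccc

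The remaining effectors were not called in any comparison. Ifit1 and Ifit3, relatives of Ifit2, were 0.56 ± 0.56 and 0.66 ± 0.54 with p53 knocked out. The oligoadenylate synthetases Oas1a, Oas2 and Oas3, which activate RNA decay, were at 0.49, 0.69 and -0.28 on average, and their relative Oasl2 at 0.49. Mx1 and Mx2, GTPases that trap viral particles, were at -0.14 and 0.84. Rsad2 (viperin), Bst2 (tetherin, which holds virus at the cell surface) and Xaf1, a factor that promotes apoptosis, were at 0.15, 0.28 and 0.31. These genes varied between replicates: Ifit1 was at 8.29 and 6.40 on the CKIα KO/p21 KO arrays and 9.10 and 8.09 on the CKIα KO/p53 KO arrays.

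Of the sensors and regulators, 1 gene was called. Zbp1, a sensor of Z-form nucleic acid, rose on average (0.81 ± 0.26, adjusted p = 0.0449, limma) and had the smallest p of the 45 genes with both genes present, where it was not called (1.53 ± 0.44, adjusted p = 0.301). It was at 6.60 and 6.90 on the CKIα Het arrays and 8.60 and 7.97 on the CKIα KO arrays, which do not overlap. In the other backgrounds the arrays overlapped. Zbp1 was at 7.15 and 7.97 in CKIα Het/p21 KO and 7.32 and 8.08 in CKIα KO/p21 KO. Without p53 it was at 6.36 and 7.41 in CKIα Het/p53 KO and 8.08 and 7.19 in CKIα KO/p53 KO. The RNA sensors Ifih1 (MDA5) and Ddx58 (RIG-I) were at -0.03 and -0.38 on average. Among the transcription factors, Stat2 and Irf9, which act at the ISRE, were at 0.21 and 0.15, Irf7 and Irf8 at 0.02 and -0.03, and Irf1, which acts downstream of interferon-γ, at -0.52 ± 0.17 (adjusted p = 0.0534), with 0 called by limma. Socs1 and Usp18, which damp the response, were at -0.24 and 0.54. Parp9 and Dtx3l, which work as a pair in DNA damage and interferon signalling, were at -0.01 and -0.01, and Parp14 at -0.45. None of these apart from Zbp1 was called on average.

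The CKIα KO group with both p53 and p21 present was the one in which the 2 arrays differed most over these genes. Of the 45 genes, 13 differed by a log2 of more than 1 between its arrays (28.9%), where 2.09% of all genes did. They include Ido1, Ifit2 and all 6 class II genes, and 11 of the 13 were lower on replicate 2. In the CKIα KO/p21 KO group 9 genes did so (20.0%, beside 4.67% of all genes), mostly antiviral genes such as Oas2, Oas3 and Rsad2 and no class II gene, and 8 of the 9 were lower on replicate 2. In the other groups 1 to 4 did. The pooled spread in limma takes no account of this difference between groups.

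Direct tests of whether p53 or p21 changes the effect of CKIα loss called 0 of the 45 genes in limma. For the difference between p53 knockout and both genes present, 0.0179% of all genes were called (0.0120% higher and 0.00598% lower). At an unadjusted p under 0.05 there were 6 of the 45 (13.3%), near the 14.9% of all genes. Those with the smallest p were Psmb10 (-0.60 ± 0.19, adjusted p = 0.255), Psmb8 (-0.85 ± 0.27, adjusted p = 0.257), Psmb9 (-0.93 ± 0.33, adjusted p = 0.267) and Tap2 (-1.003 ± 0.36, adjusted p = 0.267). For p21, 0% of all genes were called, and 10 of the 45 (22.2%) had an unadjusted p under 0.05, beside 8.13% of all genes, led by Psmb8 (-1.02 ± 0.27, adjusted p = 0.568), Gbp3 (-1.09 ± 0.35, adjusted p = 0.615), H2-Eb1 (-2.01 ± 0.72, adjusted p = 0.615) and Mx1 (-0.85 ± 0.31, adjusted p = 0.615). Of the 45 genes, 44 were below 0 in the p21 difference and 35 in the p53 difference, beside 51.5% and 56.5% of all genes. These comparisons share the CKIα KO and CKIα Het arrays with both genes present.

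Loss of p53 or p21 was also set against the matching group with both genes. Within CKIα KO, 0 genes of the set were called by limma for either, where 0.694% and 0.0359% of all genes were called (0.466% higher and 0.227% lower for p53, 0.0239% and 0.0120% for p21). At an unadjusted p under 0.05 there were 15 (33.3%) for p53 and 14 (31.1%) for p21, beside 22.3% and 12% of all genes. With p53 lost, Psmb10 was -0.49 ± 0.13, adjusted p = 0.0831, H2-Ab1 -2.05 ± 0.62, adjusted p = 0.1004, H2-Eb1 -1.69 ± 0.51, adjusted p = 0.101 and Tap2 -0.84 ± 0.25, adjusted p = 0.102 by limma. With p21 lost, Psmb8 was -0.91 ± 0.19, adjusted p = 0.169, Oasl2 -1.38 ± 0.35, adjusted p = 0.208, H2-Aa -2.51 ± 0.66, adjusted p = 0.221 and H2-Eb1 -1.92 ± 0.51, adjusted p = 0.228. With p53 lost, genes of the set were called when CKIα KO replicate 2 or either CKIα KO/p21 KO array was left out. With p21 lost, genes of the set were called when CKIα KO/p21 KO replicate 1 was left out. In each of these settings the calls over all genes rose as well.

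Between the double knockouts, CKIα KO/p53 KO minus CKIα KO/p21 KO, 0 genes were called by limma, beside 0.329% of all genes (0.114% higher, 0.215% lower). At an unadjusted p under 0.05 there were 6 of the 45 (13.3%), beside 9.01% of all genes. Ifit2 was 1.77 ± 0.48, adjusted p = 0.257, Gbp3 0.84 ± 0.25, adjusted p = 0.318, Oasl2 1.06 ± 0.35, adjusted p = 0.368 and Rsad2 1.10 ± 0.42, adjusted p = 0.465. Without either CKIα KO array, 1 gene was called higher. In CKIα Het mice, loss of p53 or p21 alone left medians of 0.04 and 0.08 over the 45 genes. By limma 0 were called, where 0% and 0.00598% of all genes were. At an unadjusted p under 0.05 there were 1 for p53 and 2 for p21 (2.22% and 4.44%), beside 5.63% and 5.01% of all genes. The smallest p was that of Mx1 in both (-0.50 ± 0.22, adjusted p = 0.868 for p53 and 0.66 ± 0.22, adjusted p = 0.796 for p21), followed by Stat2, Irf1 and Xaf1 for p53 (-0.48, -0.49 and -0.39) and Gbp3, Usp18 and Zbp1 for p21 (0.64, 0.77 and 0.81).

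Other genes of the pathway, from a list of 115 of which 91 were tested, are given for context. Of these 91, 7 rose and 9 fell with p53 knocked out, where 11.0% of all genes rose and 6.82% fell. With p21 knocked out 1 rose and 1 fell (1.46% and 0.514% of all genes), and on average 11 rose and 15 fell (15.5% and 8.96% of all genes). Among 7 tested ligands and inducers 0 were called on average by limma, and Il18, a cytokine that raises interferon-γ, fell without p53 (-0.61 ± 0.16, adjusted p = 0.0296). Ifng itself was between 3.73 and 4.55 on the 12 arrays, where the lower quartiles of the arrays were 3.59 to 3.73 and their medians 4.96 to 5.12, and was -0.24 ± 0.11 on average (limma adjusted p = 0.142). Of 9 receptors and kinases 3 fell on average, namely Ifnlr1 (-0.65 ± 0.15, adjusted p = 0.0130) and Il10rb (-0.43 ± 0.14, adjusted p = 0.0469), the chains of the interferon-λ receptor, and the kinase Jak2 (-0.42 ± 0.12, adjusted p = 0.0349). The interferon-γ receptor genes Ifngr1 and Ifngr2 were at -0.21 and -0.04 and the type I receptor genes Ifnar1 and Ifnar2 at 0.13 and -0.34, and none of these was called. Without p53, Il10rb and the kinase Tyk2 fell, at -0.85 and -0.47.

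Of 10 genes of the induction pathway tested, Dhx58, the sensor LGP2, rose (0.66 ± 0.20, adjusted p = 0.0356, limma) and Mavs, the adaptor of the RNA sensors, fell (-0.66 ± 0.12, adjusted p = 0.00533) on average, as did the kinases Tbk1 and Ikbke and the DNA sensor Tlr9 (-0.46, -0.50 and -0.42). Ikbke was also lower in CKIα KO/p53 KO than in CKIα KO (-1.48 ± 0.24, adjusted p = 0.0458, limma). Of 34 other interferon-induced genes, Ly6e (1.04) and Lgals3bp (0.76) rose and Ifi27l2a (-0.67), Ube2l6 (-0.64) and Sp100 (-1.07) fell on average. The chemokines Cxcl9 and Cxcl10, targets of interferon-γ, were at 0.11 and -0.08 and were not called. Of 12 other class II genes, the lysosomal protease Lgmn rose 2.88-fold, Rfx5 by 0.43 and the costimulator Cd80 by 0.35 in log2, and H2-Ob (-0.46), H2-Eb2 (-0.34), Rfxank (-0.38) and Ifi30 (-0.35) fell. Cd80 rose without p21 (0.88 ± 0.18, adjusted p = 0.0468, limma) and was lower in CKIα KO/p53 KO than in CKIα KO/p21 KO (-1.53 ± 0.18, adjusted p = 0.0102). Of 6 other negative regulators, Ptpn2 rose by 0.25 and Cish (-0.54) fell. After the further quantile normalization the calls of Ptpn2 on average and of Tlr9 and Rfx5 without p53 were lost.

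Class II genes are also expressed by B cells, dendritic cells and macrophages, and lymphocytes are a source of interferon-γ, so the markers of these cells are given beside the results. Over 19 T and intraepithelial lymphocyte markers, the mean log2 level on replicates 1 and 2 was 7.64 and 7.68 in CKIα Het, 7.72 and 7.23 in CKIα KO, 7.34 and 8.25 in CKIα Het/p21 KO, 6.98 and 5.99 in CKIα KO/p21 KO, 6.58 and 7.55 in CKIα Het/p53 KO and 7.63 and 6.34 in CKIα KO/p53 KO. The class II mean over 6 genes, in the same order, was 8.75 and 9.39, 9.61 and 7.83, 8.62 and 9.48, 7.18 and 6.73, 8.75 and 9.19, and 7.20 and 7.25. Without p53, the lymphocyte mean was higher in CKIα KO than in CKIα Het on replicate 1 and lower on replicate 2, and the class II mean was lower on both. In every group but CKIα KO/p53 KO, the array with the lower class II mean also had the lower lymphocyte mean. Without p21, all 19 lymphocyte markers were below 0, where 51.0% of all genes were. Their median was -1.50, and 0 were called by limma.

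Over 20 myeloid and dendritic markers the mean level was 4.62 to 5.10 on the CKIα Het arrays of all backgrounds and 4.53 to 4.96 on the CKIα KO arrays, and over 8 B and plasma cell markers 4.35 to 5.16 and 4.05 to 4.61. On average over the backgrounds, 3 of 19 tested myeloid and dendritic markers fell (Csf1r, -0.35, Adgre1, -0.40, and Tyrobp, -0.61), and Cd68 rose by 0.32. Of 19 lymphocyte markers 1 fell (Cd2, -0.34), and of 8 B cell markers 1 fell (Cd79b, -0.30). Over all genes tested, 8.96% were called lower and 15.5% higher in this comparison. Single markers of B cells (Ms4a1, 3.06 to 4.96) and macrophages (Adgre1, 3.49 to 4.52) were low beside array medians of 4.96 to 5.12. Adgre1 lay below the mean of its list on every array of the comparisons, so other markers of that list were higher. Whether such cells were absent was not tested. Of 16 enterocyte markers 7 fell on average, where 8.96% of all genes did. They were led by lactase (Lct, -2.65) and sucrase-isomaltase (Sis, -1.09), with Slc5a1, Apob, Fabp2, Krt20 and Vil1 between -0.70 and -0.35. Krt19 rose (0.41), and the median over the enterocyte markers was -0.30. Without p53, Cd68 (0.89) rose, and Lct, Sis, Slc5a1, Apob and Vil1 (-4.57 to -0.66) and the endothelial Eng (-0.44) fell. In that comparison 11.0% of all genes were called higher and 6.82% lower. After the further quantile normalization the calls of Adgre1 and Cd68 on average and of Apob and Eng without p53 were lost. The part of these cells, and of the enterocyte state, in the differences of the interferon and class II genes was not tested.

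**Figure D5:**
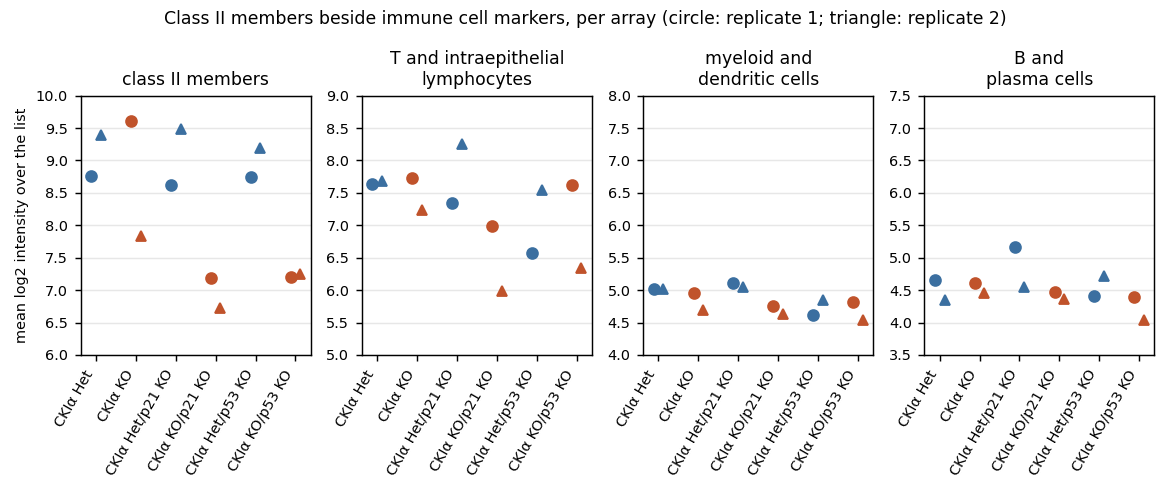
The panels plot the mean log2 intensity (vertical axis, each panel spanning the same number of log2 units) over the 6 class II genes and over markers of 3 kinds of immune cell on each array of the 6 groups (blue CKIα Het, orange CKIα KO, circle replicate 1, triangle replicate 2). The class II mean lies between 6.73 and 7.25 on the 4 double knockout arrays and between 8.62 and 9.48 on the CKIα Het arrays. The lymphocyte means of CKIα KO/p53 KO (7.63 and 6.34) and CKIα Het/p53 KO (6.58 and 7.55) overlap. Those of CKIα KO/p21 KO (6.98 and 5.99) lie below those of CKIα Het/p21 KO (7.34 and 8.25).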

How the data were processed

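Per the labels' protocols, total RNA of enterocytes was labelled with biotin and hybridized to Affymetrix arrays, and the authors summarized each probe set with Affymetrix Expression Console 1.1 (RMA Sketch) and scaled to median intensities. The values the authors deposited, 1 for each of 35556 probe sets, were read as log2 values, a base taken from their range because the labels do not give it. No sequencing depth applies, and the number of arrays limits the precision. Gene names came from the platform's annotation: 21789 probe sets carried 1 symbol, 1621 several and 12146 none, and only the first kind was used.

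One limma model (version 3.58.1, R 4.3.3) held the 12 arrays titled replicate 1 or 2, with a mean for each of 6 groups, 6 residual degrees of freedom and 11 comparisons. Genes entered if 2 or more of the arrays were above their own lower quartile. Two-sided p-values were adjusted (Benjamini-Hochberg) over all genes tested in a comparison. The computation was tested on simulated data. Promoter sequences are those of RefSeq for GRCm38.p6, and motifs were searched by exact letters.

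The genes and lists were chosen with earlier results of these data known. The text names every called gene of the set, the 4 with the smallest p where fewer than 4 were called, and called genes of the pathway list; other genes are given by level or difference. Alternatives were no filter, quantile normalization, an intensity trend, the replicate number as a block, the remaining array added, the mean of all probe sets, and each array left out.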

Additional observations from a re-analysis of the deposited data

Results flagged for a closer look

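The array whose labels disagree (CKIα KO/p53 KO in its title, CKI KO alone as genotype) entered no comparison, and 9 of the 45 genes exceeded the highest CKIα Het array on it by a log2 of more than 1. How many of all genes did so was not counted. Ifit2 was at 9.15, against a highest value of 4.84 on the 6 CKIα Het arrays and 7.22 on all 12 arrays of the comparisons. Mx2 was at 7.21, Oas2 at 8.04, Irgm1 at 8.58, Ifit1 at 9.69, Usp18 at 8.36, Ifit3 at 7.38, Gbp3 at 7.27 and Rsad2 at 8.96. In all, 18 of the 45 genes were higher on this array than on any of the 12, as were 2.91% of all genes tested. Of its class II genes, 5 lay above the 4 double knockout arrays and below the highest CKIα Het array. H2-Ab1 (9.90), H2-Aa (9.62), H2-Eb1 (9.59) and H2-DMa (6.09) lay below all 6 CKIα Het arrays, whose lowest values were 10.18, 9.69, 9.61 and 6.11. Cd74, at 9.98, lay within the CKIα Het range of 9.96 to 11.24. Ciita, at 6.19, lay above all 6 CKIα Het arrays. Ido1, at 9.20, lay between the double knockout arrays (highest 7.73) and the CKIα Het arrays (lowest 10.01). As 1 array with labels that disagree, it carries no test.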

How the results depend on the processing

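The count of genes of the set called stayed within 1.5 times of the reported one for the average over backgrounds under the 6 alternatives that keep all arrays (14 to 17 in place of 15). Without p21 it was 1 without the filter on dim genes and 0 with the remaining array added, in place of 2, and without p53 it was 5 with that array added, in place of 11. Leaving out 1 array, where the lone array of a group is assumed to vary like the other groups, gave 0 to 1 with both genes present, 0 to 10 without p21, 0 to 14 without p53 and 10 to 18 on average. It gave 0 to 9 for p53 lost and 0 to 5 for p21 lost within CKIα KO, 0 to 1 between the double knockouts, and 0 throughout for the other comparisons. No gene named by the rule changed sign under an alternative.

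Over all genes, the calls were 163 without the filter and 108 with the remaining array without p21 (330 reported), 338 with the replicate block and 0 with the remaining array for p53 lost within CKIα KO (116 reported), and 1 with the remaining array between the double knockouts (55 reported). With both genes present they were 2 in place of 4 after quantile normalization, with the block or with that array. For the p53 difference of the CKIα effect they were 5 after quantile normalization and 0 with that array, in place of 3, and for p21 lost in CKIα Het 2 after quantile normalization in place of 1. The replicate numbers share a pattern only in part: the deviations of same-numbered arrays correlated by -0.16 to 0.25 over 15 pairs of groups, above 0.1 in 5. Each of the 12 arrays correlated best with one of its own number. The 2 arrays of a group always give the same answer here, because their deviations from the group mean mirror each other. The replicate number also coincides with the Xist level. With the replicate block, 10 genes of the set were called without p53 and 14 on average, 10 and 13 of them among those reported, 2 without p21 and 0 elsewhere. The calls lost with the block were H2-DMa without p53 (limma adjusted p = 0.0506) and Psmb9 and B2m on average (0.0507 and 0.0517).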
